A study of Homo sapiens with 9 samples.

Results

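TXNIP, the 4 arrestin-domain genes ARRDC1 to ARRDC4, and the transcription factor pair MLXIP (MondoA) and MLX were followed in A2780 cells, an established human ovarian carcinoma line, treated with platinum compounds. These 7 genes were taken by symbol from a table of 24542 genes and loci, and all 7 were among the 15558 that passed the filter on low counts. The set was selected on the rise of TXNIP in Pt-ttpy against DMSO, so that contrast is a description for the 7 genes, and TXNIP is given no test in any contrast. For the other genes, cisplatin against DMSO reuses the DMSO libraries of the selecting contrast. The genes were also chosen with earlier results of these data known, so their p-values are not independent of that choice. The cells were sampled after 96 h in 0.5% DMSO, in 0.6 µM cisplatin (written Cispt in the labels) or in 5.5 µM Pt-ttpy, a platinum complex that the series describes as binding G-quadruplex DNA. Each group held 3 libraries of messenger RNA, which the sample titles call biological replicates; how the cultures were kept apart is not described there. The series used differential expression to look for genes affected by Pt-ttpy.

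TXNIP protein binds and inhibits reduced thioredoxin and promotes the removal of glucose transporters from the cell surface. It belongs to the alpha-arrestins, adaptor proteins that bring NEDD4-type ubiquitin ligases to membrane proteins; ARRDC1 to ARRDC4 are its relatives. MondoA, the product of MLXIP, pairs with MLX, enters the nucleus when glucose 6-phosphate is abundant, and is known to activate TXNIP and ARRDC4 through carbohydrate response elements, which are pairs of CACGNG half-sites set 5 bases apart.

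The upstream sequence of 3 genes is shown because MondoA and MLX are known to act at such sites in TXNIP and ARRDC4, and because MLX is the partner whose own level changed. The letters are RefSeq sequence of GRCh38.p14, read 5′ to 3′ along the gene's strand, and capitals mark CACGNG on either strand. The stretches are chr1:145996601-145996704 (minus strand) for TXNIP, chr15:97960478-97960602 (plus strand) for ARRDC4 and chr17:42567000-42567067 (plus strand) for MLX, each ending before the first base of the gene in GENCODE.
TXNIP: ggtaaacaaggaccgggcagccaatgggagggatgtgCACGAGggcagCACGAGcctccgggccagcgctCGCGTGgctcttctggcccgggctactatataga
ARRDC4: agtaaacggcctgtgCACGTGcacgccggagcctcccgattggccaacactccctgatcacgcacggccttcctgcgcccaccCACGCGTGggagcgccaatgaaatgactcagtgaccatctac
MLX: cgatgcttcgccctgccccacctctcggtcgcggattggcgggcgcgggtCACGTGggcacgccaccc
The table held 10 promoters for the 7 genes. In the 250 bases before the upstream one of its start sites, TXNIP held the 2 half-sites with the 5-base gap, beginning 88 bases before the start. This arrangement, with both half-sites in the same direction, was found in 16 of 35116 promoters, or 0.0456%. Pairs in opposite directions were not searched. ARRDC4 held 3 half-site matches, 1 of them the E-box CACGTG, but no pair with that gap. Its matches at offsets -142 and -140 overlap in CACGCGTG. MLX held 1 CACGTG, a motif present in 6.34% of promoters. ARRDC2 also held 3 half-site matches and ARRDC3 held 1, each in only 1 of its windows, and ARRDC1 and MLXIP held none. A single CACGNG on either strand occurred in 26.7% of promoters. A pattern of 4 GGG runs with loops of 1 to 7 bases on either strand, the simplest letter pattern for a G-quadruplex, was found upstream of ARRDC1, ARRDC2 and ARRDC3 and in 23.3% of all promoters; no match was found in the windows of TXNIP, ARRDC4, MLXIP and MLX. These matches describe letters and were not tested for binding.

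Library totals ran from 31.3 M to 40.8 M counts, and levels are given as CPM, a gene's counts relative to the library total after TMM scaling. In 2 libraries, DMSO replicate 2 and cisplatin replicate 2, the deviations of genes from their mean over the libraries rose with the GC content of their transcripts (Spearman rho across genes 0.52 and 0.42), while rho lay between -0.34 and -0.17 in the other 7. The changes of the 7 genes against DMSO are given with and without these 2 libraries. Of 10 ovarian and epithelial markers, the summed level was 0.171 to 1.07 CPM in DMSO, 1.96 to 4.23 in cisplatin and 1.08 to 1.77 in Pt-ttpy. KRT7 was at 0 in all 9 libraries, PAX8 did not pass 0.304 CPM and KRT8, the highest, reached 1.90 CPM, so the defining markers of the labelled tissue were absent or nearly so. KRT8 and EPCAM were called higher in cisplatin (edgeR adjusted p = 0.00786 and 0.0338). The sum over 12 markers of other cell types was 367 to 488 CPM in DMSO, 622 to 742 in cisplatin and 760 to 833 in Pt-ttpy. It came almost wholly from the stromal matrix genes LUM and DCN, both called higher in both drugs. COL1A1, also a stromal matrix gene, lay between 7.87 and 15.3 CPM. It was called in neither Pt-ttpy nor cisplatin against DMSO (edgeR adjusted p = 0.695 and 0.750). CD68 lay between 2.72 and 5.50 CPM and was not called in either. PTPRC, CD3E and PECAM1 were at or near 0. The part of these shifts in the changes below was not tested.

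TXNIP lies on chromosome 1 (chr1:145992435-145996600, minus strand, GRCh38). Its level was 7.20, 4.84 and 5.19 CPM in DMSO replicates 1 to 3. It was 37.0, 18.6 and 33.2 CPM in the cisplatin libraries and 19.1, 26.1 and 22.4 CPM in the Pt-ttpy libraries. Every drug library lay above every DMSO library, and the 2 drug groups overlapped. The fitted change was 3.93-fold in Pt-ttpy against DMSO (log2 1.97, SE 0.25) and 5.14-fold in cisplatin against DMSO (log2 2.36, SE 0.26). Both contrasts use the same 3 DMSO libraries. Without DMSO replicate 2 and cisplatin replicate 2 the log2 changes were 1.87 and 2.51. The log2 difference of Pt-ttpy from cisplatin was -0.39 (SE 0.24). It ranged from -0.20 without cisplatin replicate 1, the highest cisplatin library, to -0.64 without cisplatin replicate 2, the lowest.

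**Figure D1:**
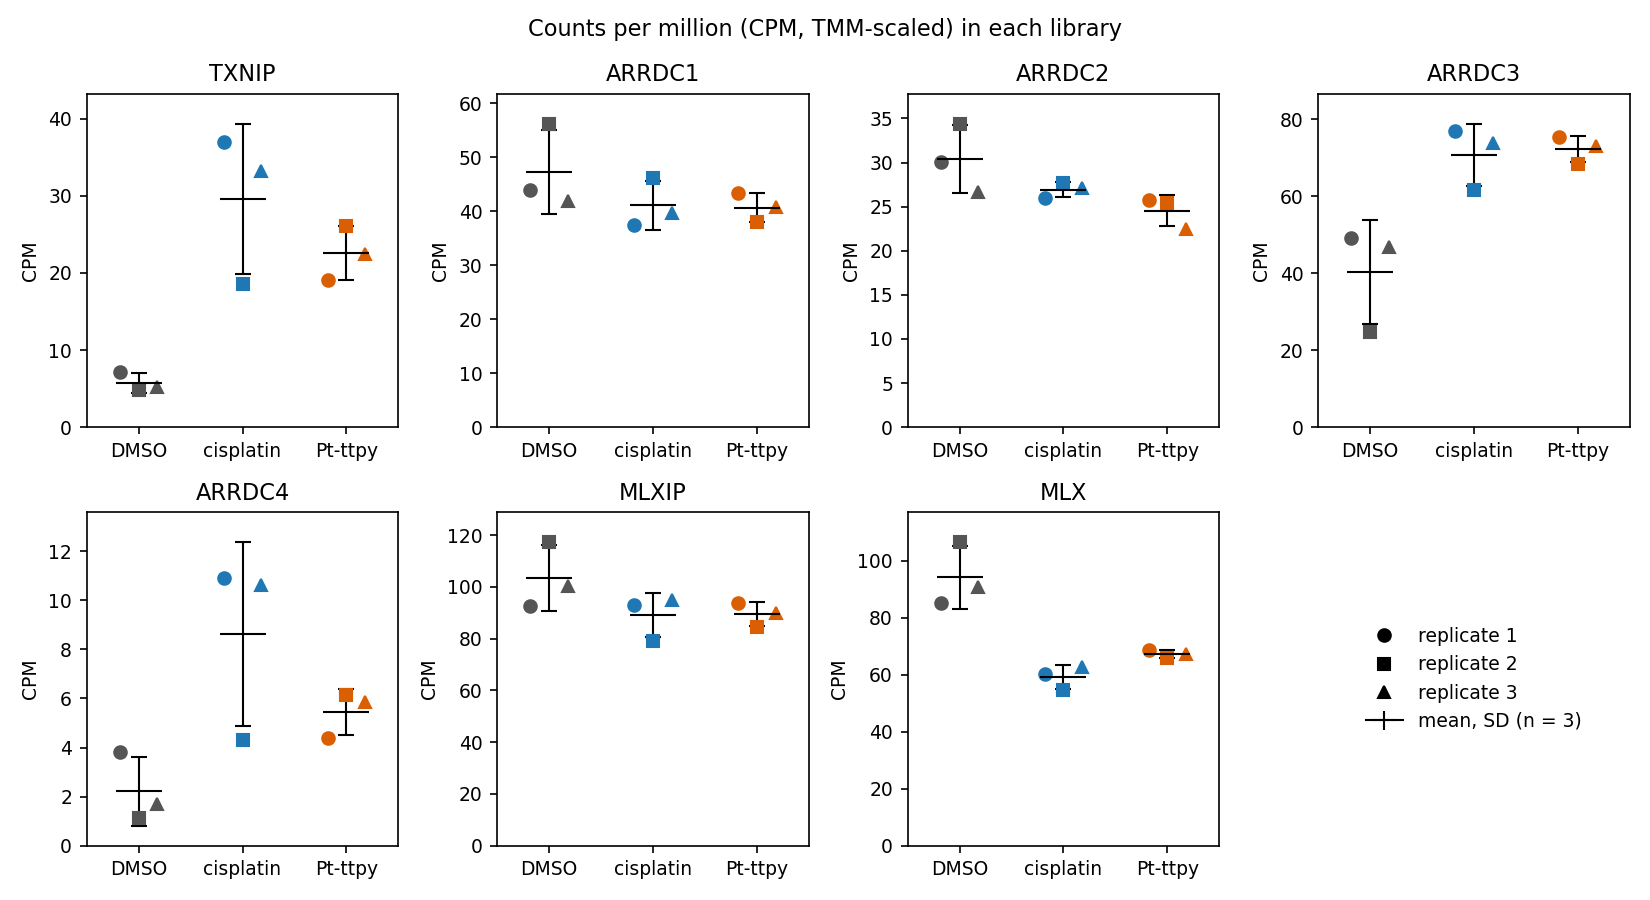
Level of each of the 7 genes in CPM (y axis, from 0) in the 9 libraries by treatment (x axis), with marker shape for the replicate and bars for the mean and SD of 3 libraries. TXNIP runs from 4.84 to 7.20 CPM in DMSO and from 18.6 to 37.0 CPM in cisplatin, with Pt-ttpy between 19.1 and 26.1 CPM.

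ARRDC4, an alpha-arrestin close to TXNIP in sequence and also known to limit glucose uptake, lies at chr15:97960698-97973838 (plus strand). It was measured at 3.80, 1.15 and 1.70 CPM in DMSO, from 135, 40 and 68 counts. Cisplatin libraries gave 10.9, 4.29 and 10.6 CPM, and Pt-ttpy libraries gave 4.37, 6.15 and 5.84 CPM. All 6 drug libraries lay above the 3 DMSO libraries, although DMSO replicate 1 came close to cisplatin replicate 2. ARRDC4 rose in cisplatin against DMSO by log2 1.96 (3.88-fold, SE 0.44, 95% interval 1.00 to 2.92, edgeR quasi-likelihood adjusted p = 0.0118). Leaving out each library in turn kept this call in 9 of 9 fits, with log2 changes from 1.65 without DMSO replicate 2 to 2.59 without DMSO replicate 1, and the change was 1.98 without both DMSO replicate 2 and cisplatin replicate 2. In Pt-ttpy against DMSO the fitted change was log2 1.30 (2.46-fold, SE 0.44); it was 1.00 without DMSO replicate 2, the lowest library, and 1.93 without DMSO replicate 1, the highest control.

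ARRDC3, which is known for guiding the beta2-adrenergic receptor and integrin beta4 to ubiquitylation and for limiting energy expenditure in fat tissue, lies at chr5:91368724-91383359 (minus strand). Its level was 49.1, 24.7 and 46.8 CPM in DMSO. It was 76.8, 61.5 and 73.7 CPM in cisplatin and 75.2, 68.5 and 72.9 CPM in Pt-ttpy. Neither drug group overlapped DMSO, and the drug groups overlapped each other. ARRDC3 rose in cisplatin against DMSO by log2 0.81 (1.76-fold, SE 0.21, edgeR adjusted p = 0.0195), a call that ended without cisplatin replicate 1 (adjusted p = 0.0525). Without DMSO replicate 2, the lowest library, the change was 0.56 and stayed called (adjusted p = 0.00981). In Pt-ttpy against DMSO it was log2 0.84 (SE 0.21), or 0.59 without DMSO replicate 2. Without both DMSO replicate 2 and cisplatin replicate 2 the cisplatin change was 0.66.

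ARRDC1, an adaptor known for the budding of vesicles from the plasma membrane, lies at chr9:137605654-137615360 (plus strand). It measured 43.8, 56.2 and 41.8 CPM in DMSO, 37.4, 46.2 and 39.7 in cisplatin and 43.3, 38.0 and 40.7 in Pt-ttpy, and all 3 groups overlapped. ARRDC2, an alpha-arrestin whose function is less studied, lies at chr19:18001132-18014102 (plus strand). It measured 30.0, 34.4 and 26.7 CPM in DMSO, 26.0, 27.6 and 27.1 in cisplatin and 25.8, 25.4 and 22.5 in Pt-ttpy; the Pt-ttpy libraries lay below all others. In cisplatin against DMSO neither gene passed the test: log2 was -0.20 for ARRDC1 (95% interval -0.50 to 0.10, edgeR adjusted p = 0.319) and -0.17 for ARRDC2 (-0.45 to 0.10, edgeR adjusted p = 0.352). With a GC correction added after the data were seen, ARRDC1 was called lower at -0.26 (adjusted p = 0.0212; up to 0.743 over the alternatives). In Pt-ttpy against DMSO the fitted values were -0.22 (SE 0.14) and -0.31 (SE 0.13). Without DMSO replicate 2 and cisplatin replicate 2, ARRDC1 was at -0.15 in cisplatin and -0.07 in Pt-ttpy, and ARRDC2 at -0.09 and -0.20. Leaving out DMSO replicate 2 alone brought ARRDC1 to -0.06 in cisplatin.

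MLX, the obligate partner of MondoA and ChREBP, lies at chr17:42567068-42573239 (plus strand). Its level was 85.2, 106 and 90.8 CPM in DMSO. It was 60.4, 54.7 and 62.9 CPM in cisplatin and 68.6, 65.7 and 67.4 CPM in Pt-ttpy. Every drug library lay below every DMSO library, and the Pt-ttpy libraries lay above the cisplatin ones. MLX fell in cisplatin against DMSO (log2 -0.67, SE 0.11, 95% interval -0.91 to -0.43, edgeR adjusted p = 0.00309), in all 9 fits that left out 1 library. In Pt-ttpy against DMSO its log2 change was -0.49 (SE 0.11). Without DMSO replicate 2 and cisplatin replicate 2 the values were -0.51 in cisplatin (edgeR adjusted p = 1.92e-05) and -0.38 in Pt-ttpy. MLX shares 770 exonic bases, 18.1% of its exonic length, with PSMC3IP on the opposite strand, and the strandedness of the counting is not given in the sources used here, so reads of the 2 genes there cannot be told apart. PSMC3IP was at 16.0 ± 0.328 CPM in DMSO and 10.5 ± 1.24 in cisplatin (SD, n = 3; log2 -0.60, edgeR adjusted p = 0.0158).

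MLXIP, which encodes MondoA, lies at chr12:122078722-122147347 (plus strand). It measured 92.5, 117 and 100 CPM in DMSO, 93.0, 79.3 and 94.9 in cisplatin and 93.8, 84.6 and 89.8 in Pt-ttpy. The groups overlapped. The gene did not pass the test in cisplatin against DMSO (log2 -0.21, 95% interval -0.47 to 0.04, edgeR adjusted p = 0.212), and its fitted value in Pt-ttpy against DMSO was -0.21 (SE 0.12). Without DMSO replicate 2 and cisplatin replicate 2 these values were -0.03 and -0.11. In bulk RNA, fewer cells of a kind and less RNA per cell cannot be told apart, here or for the other genes.

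**Figure D2:**
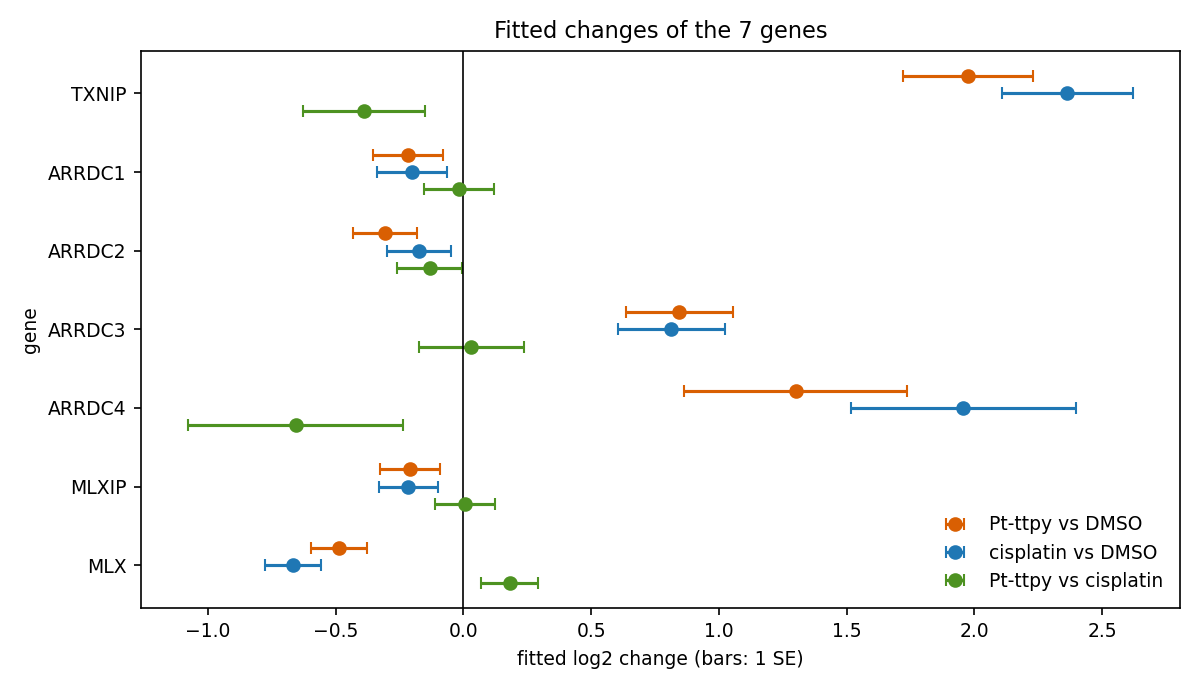
Fitted log2 change (x axis) of each gene (y axis) in the 3 contrasts, with bars of 1 SE. TXNIP, ARRDC3 and ARRDC4 lie right of 0 in both contrasts against DMSO, MLX lies left of it, and in those contrasts ARRDC1, ARRDC2 and MLXIP lie within -0.31 to -0.17.

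Of the 6 genes tested in cisplatin against DMSO, 2 were called higher and 1 lower, against 10.7% and 9.78% of all genes tested. All cisplatin libraries lay above all DMSO libraries for 3 of the 7 and below them for 1, against 18.6% and 19.4%. TXNIP, on which the set was selected, is 1 of the 3, and this contrast shares its DMSO libraries with the selecting contrast. Nothing is read from that count of the 7 genes. In Pt-ttpy against DMSO, the contrast behind the choice of genes, 5.59% of all genes were called higher and 6.45% lower, and 20.3% and 20.6% had all libraries higher or lower; of the 7 genes, 3 lay wholly above and 2 wholly below. Nothing is read from those counts for that contrast.

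Pt-ttpy and cisplatin were set side by side at different doses, so their values compare these 2 treatments and not the compounds at a matched dose. None of the 6 tested genes passed the edgeR test between them (0 of 6 also at an unadjusted p under 0.05, and 0 by DESeq2), in a contrast in which 0.0578% of all genes were called higher and 0.456% lower. For ARRDC4 the log2 difference of Pt-ttpy from cisplatin was -0.66 (95% interval -1.57 to 0.26, edgeR adjusted p = 0.753). It was -0.98 without DMSO replicate 2 and cisplatin replicate 2 (adjusted p = 0.0507), the lowest over 20 alternatives, which ran up to 0.984. The intervals were -0.42 to 0.48 for ARRDC3 and -0.06 to 0.42 for MLX (edgeR adjusted p = 0.978 and 0.733). They were -0.31 to 0.28 for ARRDC1, -0.41 to 0.14 for ARRDC2 and -0.25 to 0.26 for MLXIP. MLX lay wholly higher and ARRDC2 wholly lower in Pt-ttpy, patterns shared by 10.5% and 10.1% of all genes.

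Compared per kilobase of exonic length, MLX was the most abundant of the 7 in DMSO at 22.1 ± 2.59 CPM per kb (SD, n = 3), followed by ARRDC1 at 12.4 ± 2.03. ARRDC3 at 8.14 ± 2.74, MLXIP at 7.43 ± 0.908 and ARRDC2 at 6.55 ± 0.833 came next and did not differ beyond their spread. TXNIP at 1.58 ± 0.352 and ARRDC4 at 0.544 ± 0.344 were lowest. In cisplatin TXNIP stood at 8.16 ± 2.68 CPM per kb, with a spread that covers ARRDC2 at 5.80 ± 0.187 and MLXIP at 6.41 ± 0.615. In Pt-ttpy TXNIP was at 6.22 ± 0.970, within the spread of MLXIP at 6.43 ± 0.332. ARRDC4 stayed lowest in all 3 groups. With the longest coding transcript as the length, MLX and ARRDC1 (36.4 and 29.8 CPM per kb in DMSO) still led and TXNIP and ARRDC4 were still lowest, while ARRDC3 moved below MLXIP and ARRDC2.

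The level of ARRDC4 followed that of TXNIP from library to library. Over the 9 libraries the Pearson r of their log2 CPM was 0.94, and 0.93 after each library was centred on its group mean. Without DMSO replicate 2 and cisplatin replicate 2, r over the other 7 was 0.93, without centring. An r without centring also holds the difference between the drugs and DMSO. For MLX and TXNIP it was -0.998 over these 7, and 0.01 over the 9 after centring. ARRDC4 ranked 26 of 10633 genes by likeness to TXNIP, and ARRDC3 ranked 211 with r = 0.87, which was 0.50 after centring on the group means. The points share depth and the GC trend of their libraries. In DMSO and in cisplatin, TXNIP, ARRDC3 and ARRDC4, with transcript GC of 43.9%, 37.6% and 43.4%, were lowest in replicate 2. ARRDC1 and ARRDC2, at 64.6% and 62.2%, were highest there in both groups. MLXIP and MLX, at 57.9% and 51.8%, were highest in replicate 2 of DMSO but lowest in replicate 2 of cisplatin. The median of the tested genes was 49.4%. The genes most like TXNIP were LIPA (r = 0.99), which encodes lysosomal acid lipase, ANK2 (0.98), DCLK1 (0.97), PARP11 (0.97) and DLGAP1 (0.97). Those most like ARRDC4 were CALD1, MGME1, PARP11, C1D and DMD, all between 0.96 and 0.97. These correlations are descriptions over 9 libraries that fall into treatment groups.

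**Figure D3:**
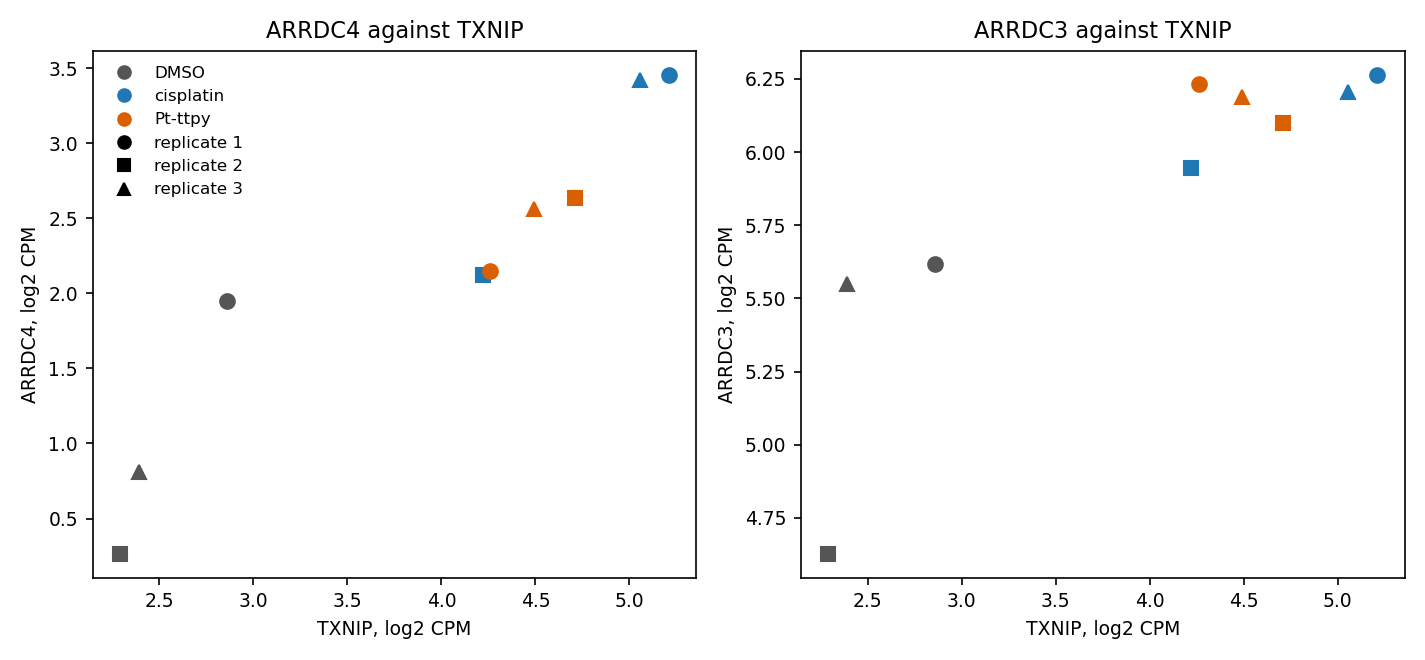
Log2 CPM of ARRDC4 (left) and ARRDC3 (right) on the y axis against TXNIP on the x axis, 1 point for each of the 9 libraries, coloured by treatment with shape for the replicate. ARRDC4 follows TXNIP across and within groups (r = 0.94 over 9 libraries), and cisplatin replicate 2 sits beside Pt-ttpy replicate 1.

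The 8 lists of genes around these proteins gave 87 tested genes of 100. In Pt-ttpy against DMSO 10 were called higher (11.5%) and 6 lower (6.90%), against 5.59% and 6.45% of all genes, so the lower share was near that of all genes. In cisplatin against DMSO 20 were higher (23.0%) and 15 lower (17.2%), against 10.7% and 9.78% of all genes. The lists were written with earlier results of these data known, so no excess is read from these shares. The same shares of all genes also stand beside the counts of each list below. The median log2 change of the listed genes was -0.01 and -0.07, and that of all tested genes 0.03 and 0.01. Of the 16 calls in Pt-ttpy, 2 (SLC2A12 and INSR) held in each of the 9 fits that left out 1 library, and without Pt-ttpy replicate 1, 2 or 3 the higher calls numbered 4, 3 and 4 and the lower ones 0. Of the 35 in cisplatin, 16 held in all 9 fits; the higher calls numbered 13 without DMSO replicate 3, and the lower ones 8, 6 and 8 without DMSO replicate 3, cisplatin replicate 1 and cisplatin replicate 2. None of the 3 calls between the drugs held in all 9.

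In the network of MAX and MLX partners, 1 of 10 tested genes rose in Pt-ttpy and 3 in cisplatin. MXI1, a MAX partner that opposes MYC, rose in Pt-ttpy from 9.54 ± 1.92 to 20.7 ± 1.37 CPM (SD, n = 3; log2 1.12, edgeR adjusted p = 0.0101) and in cisplatin to 18.8 ± 5.02 (log2 0.98, edgeR adjusted p = 0.00801). MXD4, another repressor of the network, rose in cisplatin from 53.9 ± 11.4 to 98.9 ± 13.1 CPM (edgeR adjusted p = 0.00380). MLXIPL, which encodes the MondoA paralog ChREBP, rose in cisplatin by log2 0.90 (edgeR adjusted p = 0.0308). The call of MXI1 in Pt-ttpy ended without Pt-ttpy replicate 1 (adjusted p = 0.0502), and that of MLXIPL was kept in 5 of 9 fits that left out 1 library.

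Another list, written from general knowledge, held genes outside the 7 taken as glucose-responsive targets of MondoA or ChREBP. Whether they are such targets in A2780 cells was not tested. Among its 15 tested genes, 3 rose and 4 fell in cisplatin, with a median log2 change of -0.14. NR1H3, the nuclear receptor LXR alpha, rose from 6.38 ± 1.20 to 15.7 ± 4.53 CPM (log2 1.30, edgeR adjusted p = 0.00448), in all 9 fits with 1 library left out. SCD, a desaturase of fatty acid synthesis, fell by 0.34 on the log2 scale and PFKFB3, which makes an activator of glycolysis, fell by 0.50 (edgeR adjusted p = 0.0200 and 0.0230), calls kept in 8 and 7 of 9 fits. In Pt-ttpy 1 of 15 fell: KLF10, a growth-restraining zinc finger factor, at log2 -0.73 (edgeR adjusted p = 0.0416); that call was kept in 2 of 9 fits. The promoter search found 12 other tested genes with the paired half-sites of TXNIP, both in the same direction. In Pt-ttpy 1 of the 12 was called higher and 2 lower, against 5.59% and 6.45% of all genes. These were P4HA1, higher, and MTHFS and RAN, lower (edgeR adjusted p = 0.0207, 0.0344 and 0.0329). In cisplatin 1 was called higher and 2 lower, against 10.7% and 9.78%. These were TIGD1, higher, and KCTD5 and RAN, lower (edgeR adjusted p = 0.0186, 0.0276 and 0.00729). The calls of these genes were not followed in the fits that left out 1 library.

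Of 17 tested genes listed for the thioredoxin system, the pathway TXNIP inhibits, 3 rose and 5 fell in cisplatin, and 2 rose and 2 fell in Pt-ttpy. The list also holds sestrins and glutaredoxin, and only these rose. No thioredoxin, thioredoxin reductase or peroxiredoxin gene was called higher. Those that fell in cisplatin were TXN2, PRDX1, PRDX2, PRDX4 and SRXN1, calls kept in 1, 2, 3, 9 and 9 of 9 fits. TXN2 and SRXN1 fell in Pt-ttpy, the call of TXN2 kept in 3 of 9. The genes that rose in cisplatin were SESN1, SESN2 and SESN3, sestrins induced by stress that restrain mTOR complex 1. SESN1 rose from 17.4 ± 2.99 to 40.6 ± 3.03 CPM (log2 1.22, edgeR adjusted p = 0.000433). In Pt-ttpy SESN1 was at 21.6 ± 1.68 CPM, lower than in cisplatin (log2 -0.90, edgeR adjusted p = 0.0206); this call was kept in 4 of 9 fits. SESN3 rose in Pt-ttpy as well, from 50.1 ± 15.4 to 95.3 ± 0.326 CPM (log2 0.93, edgeR adjusted p = 0.0136), a call lost without any 1 of the Pt-ttpy libraries (adjusted p up to 0.0642). SESN2 rose in cisplatin from 80.1 ± 13.4 to 152 ± 20.7 CPM (edgeR adjusted p = 0.00164). SRXN1 (sulfiredoxin, which repairs peroxiredoxins) fell in both drugs, at log2 -0.44 in Pt-ttpy and -0.45 in cisplatin, and GLRX (glutaredoxin) rose in Pt-ttpy by log2 0.43 (edgeR adjusted p = 0.0306, 0.0192 and 0.0305); the 2 Pt-ttpy calls were kept in 4 of 9 fits.

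Of 11 tested glucose transporter, hexokinase and neighbouring enzyme genes, 2 rose and 2 fell in Pt-ttpy, and 2 rose and 4 fell in cisplatin. The transporter gene SLC2A12 rose from 0.838 ± 0.250 CPM in DMSO to 3.34 ± 0.935 in Pt-ttpy and 4.72 ± 1.54 in cisplatin (edgeR adjusted p = 0.00869 and 0.00109). SLC2A4, the insulin-responsive transporter GLUT4, rose from 2.26 ± 0.182 to 5.36 ± 0.739 and 7.92 ± 3.70 CPM (edgeR adjusted p = 0.0253 and 0.00352), and the Pt-ttpy call was kept in 3 of 9 fits. SLC2A1, which encodes GLUT1, the transporter best known as TXNIP cargo, fell in cisplatin from 121 ± 3.43 to 77.9 ± 21.2 CPM (edgeR adjusted p = 0.0229), a call kept in 7 of 9 fits and lost without DMSO replicate 3 or cisplatin replicate 1. In Pt-ttpy it was at 150 ± 16.3 CPM and did not pass the test against DMSO (edgeR adjusted p = 0.231). SLC2A1 and HK2, a hexokinase, were higher in Pt-ttpy than in cisplatin by log2 0.95 and 0.79 (edgeR adjusted p = 0.0301 and 0.0367), calls kept in 4 and 3 of 9 fits. GPI, which converts glucose 6-phosphate to fructose 6-phosphate, fell in both drugs, each at log2 -0.51 (edgeR adjusted p = 0.0200 in Pt-ttpy and 0.0115 in cisplatin), and the Pt-ttpy call was lost without any 1 of the Pt-ttpy libraries.

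The list of AMPK, mTOR and FOXO regulators gave 4 genes higher of 14 tested in Pt-ttpy, and 7 higher and 1 lower in cisplatin. Of all genes, 5.59% were called higher in Pt-ttpy, and 10.7% higher and 9.78% lower in cisplatin. INSR, the insulin receptor, rose from 47.2 ± 0.829 CPM to 72.4 ± 4.32 in Pt-ttpy and 67.9 ± 6.40 in cisplatin (edgeR adjusted p = 0.00831 and 0.00690). FOXO3, a transcription factor of starvation and stress, rose by log2 0.69 and 0.63 (edgeR adjusted p = 0.0118 and 0.00853); the first call was lost without Pt-ttpy replicate 2 (adjusted p = 0.0665). PIK3IP1, an inhibitor of phosphoinositide 3-kinase, rose by log2 1.74 in cisplatin (edgeR adjusted p = 0.00404). PRKAB2, an AMPK subunit, rose by 1.16 in cisplatin and 0.58 in Pt-ttpy (edgeR adjusted p = 0.000907 and 0.0346), the latter call kept in 4 of 9 fits. Among the cargo and partners of arrestin-domain proteins DDIT4 (REDD1), a stress-induced mTOR inhibitor that binds TXNIP, rose from 53.5 ± 14.0 CPM to 160 ± 18.1 in Pt-ttpy and 168 ± 82.7 in cisplatin (edgeR adjusted p = 0.0154 and 0.00669), the Pt-ttpy call kept in 6 of 9 fits. ITGB4, cargo of ARRDC3, rose in cisplatin by log2 0.97 (edgeR adjusted p = 0.0220), a call kept in 6 of 9 fits. None of 10 NEDD4-type ligase and adaptor genes passed the edgeR test in any contrast (2 had an unadjusted p under 0.05 in Pt-ttpy against DMSO and 0 in the other contrasts, and DESeq2 called 0). Of the arrestin clan outside the 7 genes, 1 of 5 fell in both drugs: VPS26B, a retromer subunit, at log2 -0.42 and -0.43 (edgeR adjusted p = 0.0326 and 0.0199), calls kept in 3 and 6 of 9 fits.

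**Figure D4:**
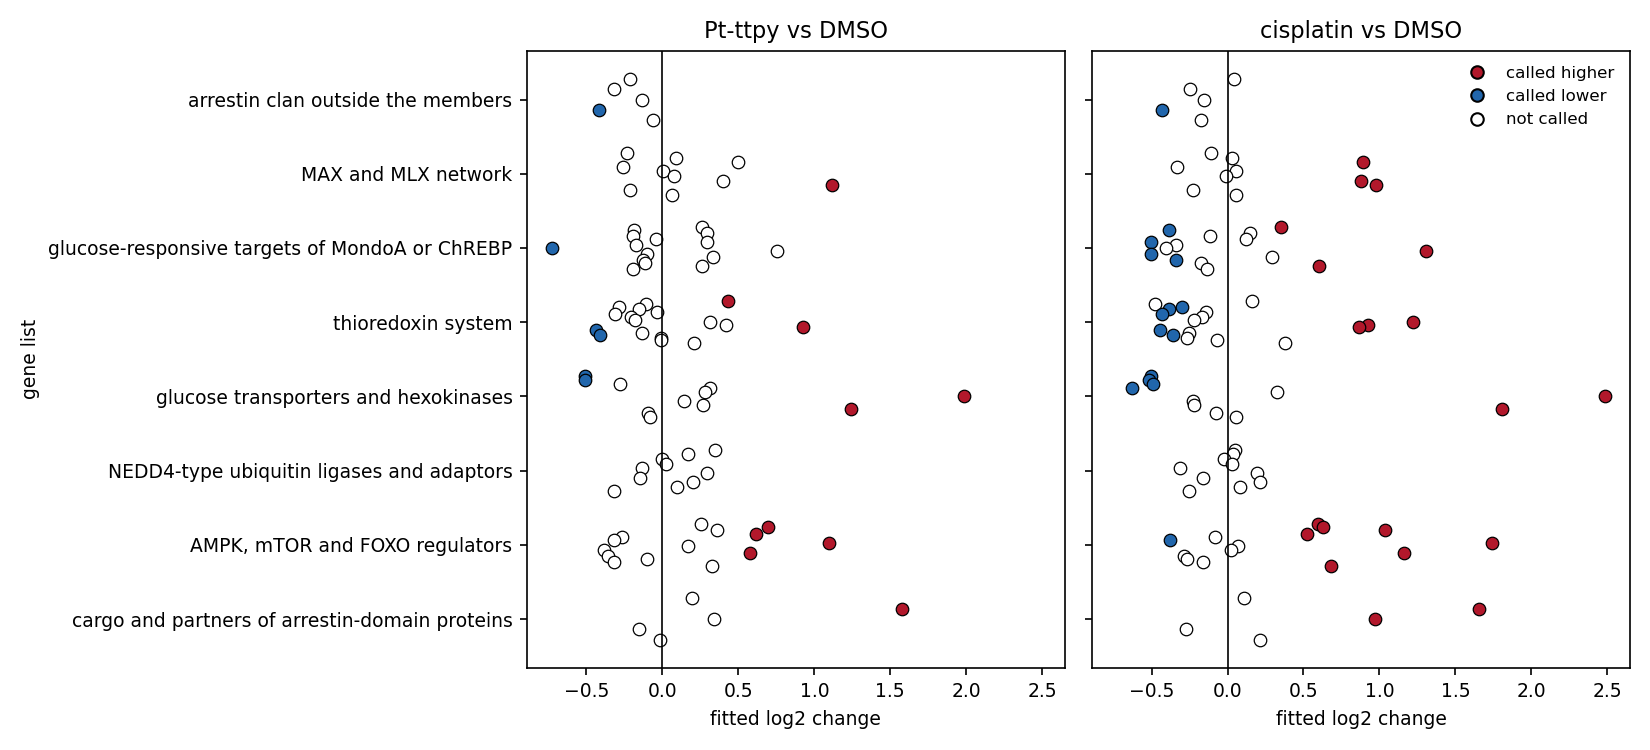
Fitted log2 change (x axis) of each tested gene of the 8 lists (y axis), 1 point per gene, in Pt-ttpy against DMSO (left) and cisplatin against DMSO (right), filled where called at an adjusted p under 0.05. SLC2A12 is the point farthest right in both panels, and no ligase or adaptor gene is filled.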

How the data were processed

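The authors deposited 1 table of raw counts per gene for 9 libraries. The submitters' processing notes name GRCh38; which aligner and counter were run, and with what strand setting, is not given in the sources used here. Counts were analysed with edgeR 4.0.16 (R 4.3.3): filterByExpr with a minimum count of 10, TMM factors, robust quasi-likelihood F tests on all 9 libraries with 1 mean per group, and Benjamini-Hochberg adjustment over the 15558 tested genes; calls used an adjusted p under 0.05. The step was tested on simulated data. Log2 CPM used a prior count of 2. Exons, lengths and GC came from GENCODE 29 and promoters from RefSeq GRCh38.p14. The named genes were the 7, up to 3 called genes per list and contrast by adjusted p, and the 5 most correlated with TXNIP and with ARRDC4. P4HA1, MTHFS, RAN, TIGD1, KCTD5, PSMC3IP, TXN2, PRDX1, PRDX2 and PRDX4 were named after their values were seen. The members and lists were chosen with earlier results of these data known. DESeq2 1.42.0 was an alternative.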

Additional observations from a re-analysis of the deposited data

How the results depend on the processing

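Across 20 alternatives the change of each of the 7 genes against DMSO kept its sign. ARRDC4 and MLX kept their cisplatin calls in all 20. ARRDC3 lost its call with only the 6 libraries of the contrast (log2 0.83, adjusted p = 0.0558) and without cisplatin replicate 1; its fits that left out 1 library ranged from 0.56 to 0.98. ARRDC1 gained one with the GC correction (-0.26), which was chosen after seeing the data. In Pt-ttpy against cisplatin the sign of values near 0 turned. ARRDC1 was at 0.075 without DMSO 2 and cisplatin 2 (the 7 libraries) and 0.13 with the GC correction, and ranged from -0.078 to 0.077 with 1 library left out. ARRDC3 was at -0.061 and -0.12 in those settings, and ranged from -0.060 to 0.096. MLXIP was at -0.0073 with DESeq2 size factors, -0.0054 with upper-quartile factors, -0.016 with library totals, -0.0072 with the DESeq2 Wald test, -0.0016 with at least 1 CPM in 3 libraries and -0.073 in the 7 libraries, and ranged from -0.072 to 0.055. Listed genes called higher in Pt-ttpy against DMSO numbered 24 in the 7 libraries and 20 with the GC correction, and 3 to 13 with 1 library left out. Those called lower numbered 3 with upper-quartile factors, 3 with library totals and 17 in the 7 libraries, and 0 to 10 with 1 left out. In cisplatin against DMSO the 6 libraries gave 13 higher and 0 lower, the 7 libraries 23 lower, and fits with 1 left out 13 to 19 higher and 6 to 15 lower. In Pt-ttpy against cisplatin the higher calls numbered 0 with the 6 libraries and 6 with the 7, and the lower ones 3 with the DESeq2 Wald test, 5 with the 7 libraries and 4 with the GC correction; fits with 1 left out gave 0 to 3 higher and 0 to 1 lower. The cause was not tested. With the replicate number as a block, 2 listed genes were lower in that contrast and no call of a member changed. The block gave 1285 genes higher and 1254 lower in Pt-ttpy against DMSO, and 1915 and 1797 in cisplatin, more than without it. Same-numbered libraries correlated at -0.04 to 0.22, the highest between DMSO 2 and cisplatin 2, whose deviations both rose with GC content. Libraries of different numbers were not compared, so these values cannot decide whether the numbers mark pairs. The main fit did not take them as pairs. Over all genes, upper-quartile factors gave 1050 higher and 666 lower in Pt-ttpy against DMSO and library totals 1005 and 773, against 870 and 1004; in cisplatin they gave 1940 and 913, and 1995 and 943, against 1669 and 1521. Over all 20 alternatives the Pt-ttpy counts ran from 143 to 2469 higher and 42 to 2720 lower, those of cisplatin from 918 to 2644 and 395 to 2559, and those between the drugs from 0 to 371 and 17 to 442. Upper-quartile factors and library totals put the median of all genes at 0.09 to 0.10 in both. ARRDC4 rests on the fewest counts of the 7, from 40 to 359 in a library.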
